A study of Mus musculus with 16 samples.

Results

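The response of mouse Paneth cells to tumour necrosis factor (TNF) in animals that had not received DEX was described from 8 of the 16 libraries of the study, the 4 labelled PBS+TNF and the 4 labelled PBS+PBS. Libraries were chosen by their group label alone. All genes with enough reads to be tested were considered, 11809 of the 55414 genes in the deposited table. C57BL/6J mice received a first injection, PBS in both of these groups, and 1 h later a second injection of PBS (PBS+PBS) or TNF (PBS+TNF), and the small intestine was sampled 3 h after the second injection. Paneth cells were sorted by flow cytometry, and poly(A) RNA of the sorted cells was sequenced in a strand-marking protocol. Per the study, samples came from individual mice, and the age and sex of the animals are not given in the sources used here. The comparison asks what TNF changes in these cells on its own, which is the state that the DEX groups of the study are read against. The 8 DEX libraries entered the model to estimate the spread between replicates, and also the filter on low counts and the scaling. They therefore helped to set which genes were tested. With only the PBS+PBS and PBS+TNF libraries, 11085 genes were tested.

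TNF binds receptors that assemble a ubiquitin-based signalling complex, which activates the IKK kinases, releases NF-kB dimers from their IkB inhibitors and also feeds into MAP kinases and cell death pathways. NF-kB then induces its own inhibitors, chemokines, adhesion molecules and antigen presentation genes, partly together with interferon-activated STAT and IRF factors. Paneth cells are long-lived secretory cells at the crypt base that release lysozyme and alpha-defensins, depend on Wnt signals, and supply Wnt, Notch and EGF family ligands to the neighbouring stem cells.

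Library totals were 11216365 to 15832111 counts in PBS+PBS and 12432905 to 13997031 counts in PBS+TNF. Values below are counts scaled to library size (CPM) after scaling by trimmed mean of M-values (TMM), in the order of replicates 1 to 4. PBS+PBS 4 and PBS+TNF 1 stood apart from the other 6 libraries, with 54.5% and 59.3% of their counts in alpha-defensin genes against 32.2% to 40.8%, and TMM factors of 0.503 and 0.418. The Paneth cell markers were present in all libraries, their plain CPM summing to 472996 to 632201 in PBS+PBS and 431462 to 626415 in PBS+TNF.

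TNF changed 1476 genes at an adjusted p under 0.05 in the edgeR quasi-likelihood test, of which 844 rose and 632 fell, so that 7.15% of all tested genes were called higher and 5.35% were called lower. These 2 percentages are the background for every list count of the main fit below. The median log2 fold change (PBS+TNF over PBS+PBS) of all tested genes was -0.04. With upper-quartile scaling in place of TMM that median moved to -0.15 and the split became 747 higher and 865 lower. That was 46.3% higher in place of 57.2%, so that the balance between the directions depended on the scaling. It also depended on 1 library, since 50.9% of called genes were higher without PBS+PBS 4. With any other single library left out that share was 56.3% to 61.6%. Pooled over all called genes the rises were larger than the falls, but not at every level without TNF. At 0.3 to 1 CPM per kb of exon in PBS+PBS the median rise was 3.06-fold and the median fall 3.23-fold. At 30 CPM per kb and above they were 2.03-fold and 2.37-fold, and in the other bins described below the rise was larger. Of called-higher genes 16.9% lay under 1 CPM in PBS+PBS, and of called-lower genes 0.949%. Among called-higher genes 706 (83.6%) at least doubled, 295 rose at least 4-fold and 74 rose at least 16-fold, with a median of 2.97-fold. Among called-lower genes 444 (70.3%) at least halved, 112 fell at least 4-fold and 9 fell at least 16-fold, with a median of 2.37-fold. The libraries of the groups did not overlap for 796 of the 844 genes and 527 of the 632 genes, and for 19.5% of all tested genes. Without PBS+PBS 1 551 genes were called higher and 365 lower of 12046 tested, and without PBS+PBS 2 565 and 396 of 12028. Without PBS+PBS 3 they were 677 and 452 of 11977, and without PBS+PBS 4 833 and 805 of 12043. Leaving out PBS+TNF 1 gave 750 and 476 of 12065, and PBS+TNF 2 597 and 464 of 12022. Leaving out PBS+TNF 3 gave 617 and 384 of 12010, and PBS+TNF 4 638 and 438 of 11966. Without both libraries that stood apart the counts were 741 and 523 of 12035. List counts given without a library are to be read beside the counts of the same fit. In bulk RNA a lower level can be fewer cells of a type or less RNA in each cell, and these cannot be told apart.

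Leaving the alpha-defensin reads aside, genes called higher took 1.42% to 2.90% of the counts of a PBS+PBS library and 4.31% to 8.64% of a PBS+TNF library. Genes called lower took 1.66% to 3.74% and 0.636% to 1.65%. These are the ranges of the genes that the test itself selected and are given as a description. Summed over genes, the called-higher genes gained 27957 CPM and the called-lower genes lost 10199.5 CPM. The long noncoding RNA AW112010 gained most, with 3.26, 6.58, 3.63 and 40.6 CPM in PBS+PBS and 2041, 491, 758 and 464 CPM in PBS+TNF (log2 fold change 6.14, SE 1.20, adjusted p = 0.0041). All 4 TNF libraries lay above the 4 controls, and PBS+TNF 1 and PBS+PBS 4 were each the highest of their group. Tifa, an adaptor that activates TRAF6, was second by gain with 61.9, 35.8, 57.7 and 55.6 CPM in PBS+PBS and 1010.2, 710.4, 554 and 418 CPM in PBS+TNF (log2 fold change 3.67, SE 0.58, adjusted p = 0.0012). The scramblase Plscr1 (3.27, SE 0.60) and the ubiquitin ligase Neurl3 (3.79, SE 0.57) were also among the 8 largest gains. Krt36, a keratin, had 1 count in PBS+PBS and 5.78, 7.898, 3.37 and 6.04 CPM in PBS+TNF, and the receptor Gpr37l1 had 2 counts and 7.13, 11.3, 7.73 and 9.31 CPM.

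The promoters of 6 genes induced by TNF are shown, because these genes stand for the NF-kB feedback inhibitors (Nfkbia and Tnfaip3), the chemokines and adhesion molecules (Cxcl10 and Icam1) and the interferon-type genes (Gbp5 and Ifit1) described below. They were chosen after their values were seen. Each runs from 250 bases before to 50 bases after the start of the canonical GENCODE transcript on GRCm39 and is written 5′ to 3′ on the gene's own strand. Capitals mark matches on either strand to the NF-kB site consensus (kB) or to the core of the interferon-stimulated response element (ISRE, GAAANNGAA), and overlapping matches are joined into 1 run of capitals.
Nfkbia, chr12:55539383-55539682, minus strand: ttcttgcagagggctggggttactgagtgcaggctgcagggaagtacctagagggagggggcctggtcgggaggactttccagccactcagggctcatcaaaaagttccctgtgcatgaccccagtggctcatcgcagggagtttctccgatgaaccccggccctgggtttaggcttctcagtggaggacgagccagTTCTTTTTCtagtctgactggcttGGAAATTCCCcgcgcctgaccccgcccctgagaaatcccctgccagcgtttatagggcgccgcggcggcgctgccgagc
Tnfaip3, chr10:18891137-18891436, minus strand: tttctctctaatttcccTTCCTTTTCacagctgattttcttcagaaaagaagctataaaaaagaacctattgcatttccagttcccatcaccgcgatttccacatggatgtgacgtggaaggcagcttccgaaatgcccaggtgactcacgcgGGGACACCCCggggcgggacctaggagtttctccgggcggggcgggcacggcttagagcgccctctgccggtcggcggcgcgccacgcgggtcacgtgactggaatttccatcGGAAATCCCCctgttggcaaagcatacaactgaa
Cxcl10, chr5:92496699-92496998, minus strand: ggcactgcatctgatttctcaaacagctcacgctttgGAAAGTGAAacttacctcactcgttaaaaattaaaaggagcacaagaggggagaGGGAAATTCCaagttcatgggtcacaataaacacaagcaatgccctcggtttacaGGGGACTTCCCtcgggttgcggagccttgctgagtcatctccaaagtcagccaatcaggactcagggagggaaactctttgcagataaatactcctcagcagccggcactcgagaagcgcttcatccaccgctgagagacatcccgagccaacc
Icam1, chr9:20926422-20926721, plus strand: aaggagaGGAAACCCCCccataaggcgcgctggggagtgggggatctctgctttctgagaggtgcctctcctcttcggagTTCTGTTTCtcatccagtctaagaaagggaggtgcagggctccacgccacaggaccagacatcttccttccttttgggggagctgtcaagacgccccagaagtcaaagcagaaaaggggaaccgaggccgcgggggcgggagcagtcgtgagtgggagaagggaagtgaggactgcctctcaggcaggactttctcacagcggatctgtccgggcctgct
Gbp5, chr3:142202284-142202583, plus strand: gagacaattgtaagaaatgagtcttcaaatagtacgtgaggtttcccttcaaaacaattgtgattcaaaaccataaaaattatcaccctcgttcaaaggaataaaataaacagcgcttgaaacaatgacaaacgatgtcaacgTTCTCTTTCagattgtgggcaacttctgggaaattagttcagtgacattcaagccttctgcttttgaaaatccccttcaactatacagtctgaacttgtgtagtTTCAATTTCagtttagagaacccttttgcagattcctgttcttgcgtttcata
Ifit1, chr19:34618021-34618320, plus strand: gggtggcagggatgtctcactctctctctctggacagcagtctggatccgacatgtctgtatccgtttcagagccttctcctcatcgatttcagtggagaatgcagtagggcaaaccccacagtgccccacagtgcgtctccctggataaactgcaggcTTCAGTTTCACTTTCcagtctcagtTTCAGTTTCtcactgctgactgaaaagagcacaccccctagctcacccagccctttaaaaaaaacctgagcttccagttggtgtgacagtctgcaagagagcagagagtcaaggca
A kB match was found in the windows of Nfkbia, Tnfaip3, Cxcl10 and Icam1, and an ISRE core match in all 6. Over all 21770 protein-coding promoters of this length, 8.97% held a kB match and 8.78% an ISRE core match. A match is a description of the letters and does not show that a factor binds.

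The size of change was set beside the level of each gene without TNF. Tested genes were put into 6 bins by their mean PBS+PBS level per kb of exon sequence. In the lowest bin, under 0.3 CPM per kb, 9.72% of 1801 genes were called higher and 1.28% were called lower, and the median rise was 10.3-fold. In the middle bin from 1 to 3 CPM per kb, 7.61% of 3588 genes were called higher and 5.99% lower, with a median rise of 2.52-fold. In the highest bin, at 30 CPM per kb and above, 3.98% of 377 genes were called higher and 4.51% lower, with a median rise of 2.03-fold. Falls were most frequent at 3 to 10 CPM per kb, where 7.87% of genes were called lower and 6.13% higher. Their median size went from 4.98-fold in the lowest bin to 2.09-fold at 3 to 10 CPM per kb and 2.37-fold in the highest bin. Over all tested genes the median log2 fold change was 0.12, -0.07, -0.02, -0.06, -0.06 and -0.07 from the lowest to the highest bin. The shares and folds of called genes are partly set by the filter and the threshold. The median SE of called genes was 0.77 in the lowest bin and 0.28 in the highest, so that only larger folds could be called at low levels, and a gene near 0 in PBS+PBS could pass the filter on low counts only through other libraries. No relation between baseline level and size of change is drawn from these values.

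**Figure D1:**
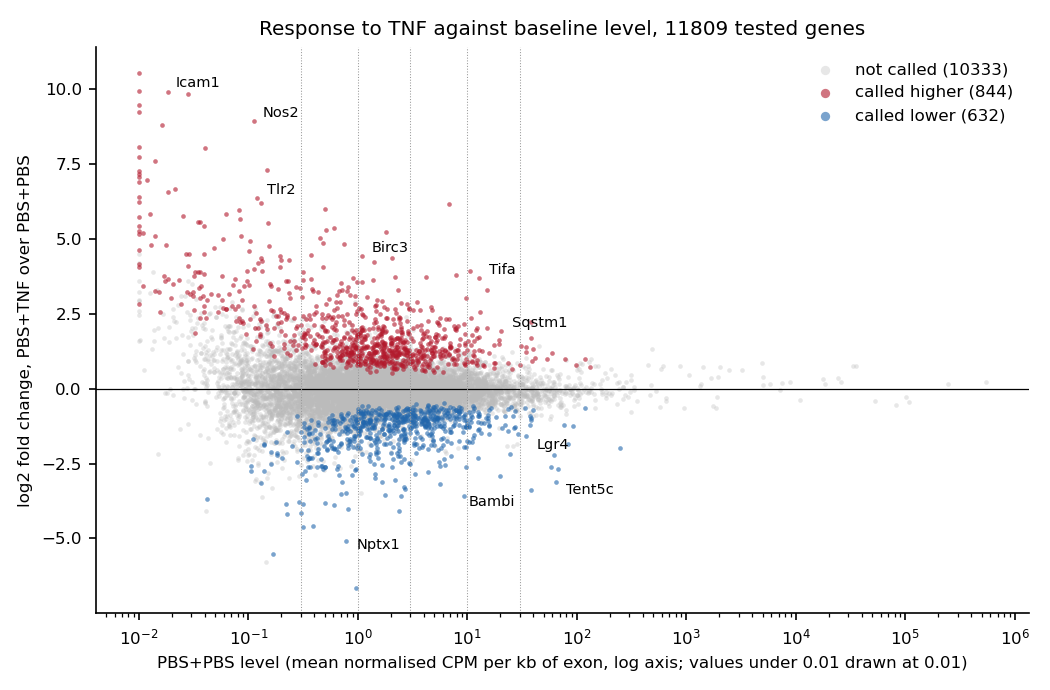
The log2 fold change of each tested gene (vertical axis) against its mean PBS+PBS level in normalised CPM per kb of exon (log axis), with genes called higher in red, lower in blue and others in grey, and dotted lines at the bin limits of 0.3, 1, 3, 10 and 30. The 844 called-higher and 632 called-lower genes are shown among all 11809 tested genes, and at the left, where the SE is larger, a gene needs a larger fold to be called.

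Because binning by the PBS+PBS level uses the same libraries as the fold change, the bins were also built from the 4 DEX+PBS libraries, which are not part of the comparison. The lowest bin then held 9.37% called higher and 1.97% called lower, with a median rise of 10.2-fold, and the highest bin 3.92% and 4.48%, with a median rise of 2.01-fold. Over all genes the medians ran from 0.06 to -0.07 with that baseline, and the filter and the calls were the same ones. Binning by the mean of all 8 libraries, which moves induced genes to higher bins, gave 3.71% called higher in the lowest bin and 8.55% in the highest, so that the order of these shares turned with the baseline used. For 5 called-higher genes no read was counted in PBS+PBS, and putting 3 counts over the group as the limit gives lower bounds. Gbp5, an interferon-induced GTPase (chromosome 3, 142199739 to 142228105), had 13.1, 20.9, 7.804 and 12.5 CPM in PBS+TNF and was at least 244-fold higher. Stx11, a syntaxin of immune cell secretion, had 7.51, 7.72, 8.44 and 12.03 CPM and was at least 161-fold higher. Erich3 was at least 99.5-fold higher, and the long noncoding RNAs Gm16685 and Gm40723 at least 118-fold and 46.0-fold higher.

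**Figure D2:**
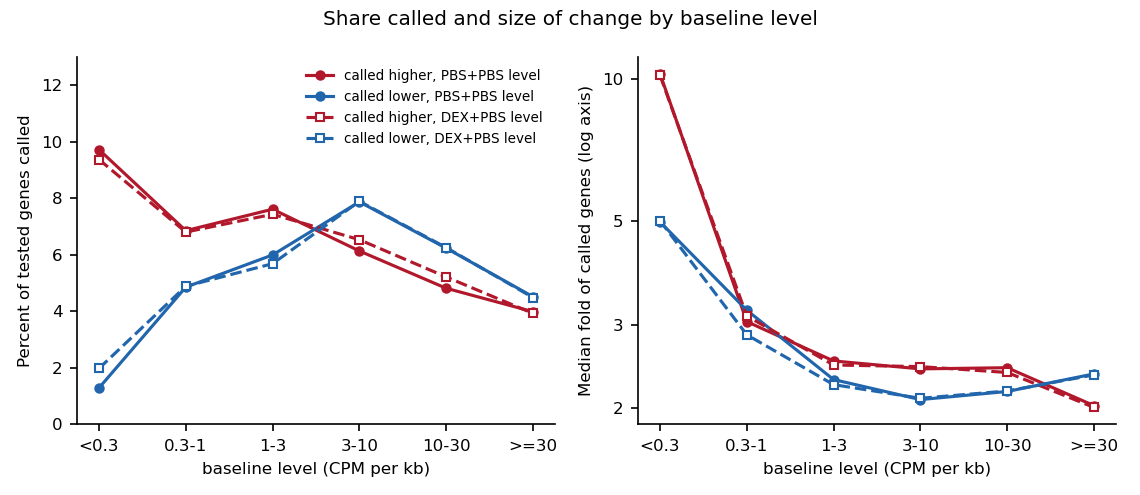
The percent of tested genes called higher (red) or lower (blue) on the left and the median fold of those genes on the right (log axis), by baseline level in CPM per kb, with baseline from PBS+PBS (filled, solid) or from DEX+PBS libraries (open, dashed). The median rise goes from 10.3-fold in the lowest bin to 2.03-fold in the highest, over called genes only, with the same filter and calls for both baselines.

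Genes of the NF-kB pathway rose, and its inhibitors had the highest share of called genes among the lists. Of 12 tested feedback inhibitors 11 rose and none fell (median log2 fold change 2.56). Tnfaip3, the ubiquitin-editing enzyme A20, had 3.94, 3.13, 4.91 and 6.53 CPM in PBS+PBS and 58.9, 86.03, 82.5 and 76.5 CPM in PBS+TNF (log2 fold change 4.05, SE 0.87, adjusted p = 0.0068), with no overlap. Bcl3, an IkB protein that works in the nucleus, had 16.4, 12.8, 12.5 and 4.396 CPM in PBS+PBS and 111, 199.6, 128 and 176 CPM in PBS+TNF (log2 fold change 3.73, SE 0.71, adjusted p = 0.0032). Nfkbie, another IkB, had 1.199, 1.404, 0.694 and 2.01 CPM in PBS+PBS and 15.797, 16.8, 15.9 and 15.0 CPM in PBS+TNF (log2 fold change 3.62, SE 0.66, adjusted p = 0.0026). The groups of both genes lay apart. Among 16 NF-kB subunits and IKK kinases, 9 rose and 1 fell. Rel, which encodes c-Rel, had 1.71, 1.404, 2.19 and 0.754 CPM in PBS+PBS and 29.1, 47.6, 22.9 and 35.7 CPM in PBS+TNF (log2 fold change 4.43, SE 0.65, adjusted p = 0.00091), and Relb, the partner of the non-canonical pathway, had 7.796, 5.94, 9.56 and 4.77 CPM in PBS+PBS and 62.8, 101, 89.5 and 98.1 CPM in PBS+TNF (log2 fold change 3.64, SE 0.66, adjusted p = 0.0026). Nfkb2, the precursor of that pathway's p52 subunit, rose by 3.27 on the log2 scale (SE 0.64) and the kinase Ikbke by 2.49 (SE 0.48). Ikbkg, which encodes the IKK scaffold NEMO, was the member that fell, with 15.4, 11.2, 13.8 and 14.4 CPM in PBS+PBS and 8.09, 9.04, 9.84 and 6.88 CPM in PBS+TNF (log2 fold change -0.69, SE 0.19, adjusted p = 0.026). Its groups did not overlap. With 1 library left out the test missed the threshold for Ikbkg (in 4 of 8 cases, adjusted p up to 0.086 without PBS+TNF 4).

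Upstream of NF-kB, 4 of 15 TRAF and LUBAC genes rose. Birc3, the ubiquitin ligase cIAP2, had 6.51, 7.98, 12.5 and 10.7 CPM in PBS+PBS and 178, 250.02, 182 and 193 CPM in PBS+TNF (log2 fold change 4.41, SE 0.75, adjusted p = 0.0017), and Rnf31, the catalytic subunit of the linear ubiquitin complex, rose by 1.20 (SE 0.27) and Traf2 by 0.95 (SE 0.26). Of 15 TNF family receptors and necroptosis genes 10 rose and none fell (median 1.49). Tnfrsf1b, the second TNF receptor, had 2.57, 4.405, 6.25 and 3.01 CPM in PBS+PBS and 28.1, 59.2, 28.3 and 55.5 CPM in PBS+TNF (log2 fold change 3.38, SE 0.60, adjusted p = 0.0023), while the first receptor, Tnfrsf1a, had 73.7, 85.2, 78.8 and 37.4 CPM in PBS+PBS and 57.99, 117, 89.4 and 106 CPM in PBS+TNF and was not called (log2 fold change 0.43, SE 0.32, adjusted p = 0.43). Ripk2, the kinase of NOD receptors, had 2.74, 0.766, 1.12 and 0.879 CPM in PBS+PBS and 24.7, 32.3, 25.5 and 24.3 CPM in PBS+TNF (log2 fold change 4.28, SE 0.75, adjusted p = 0.0021). The death receptor Fas had 5.91, 4.92, 3.42 and 8.67 CPM in PBS+PBS and 76.9, 29.9, 37.3 and 20.2 CPM in PBS+TNF (log2 fold change 2.85, SE 0.58, adjusted p = 0.0051), with PBS+TNF 1 the highest. Mlkl, the pore-forming protein of necroptosis, rose by 2.47 (SE 0.59). Single libraries decided the call of Traf2 (in 5 of 8 cases, adjusted p up to 0.083 without PBS+PBS 2).

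Cell death genes changed in both directions. In the BCL2 family 5 of 15 tested genes rose and 1 fell, around a median of 0.03. Bok, a multidomain death-promoting member, had 0.685, 1.98, 1.602 and 2.64 CPM in PBS+PBS and 18.7, 13.99, 23.1 and 22.1 CPM in PBS+TNF (log2 fold change 3.51, SE 0.46, adjusted p = 0.00044), and Bid, which caspase-8 cleaves, had 2.74, 1.92, 1.98 and 2.64 CPM in PBS+PBS and 24.7, 20.1, 20.5 and 18.7 CPM in PBS+TNF (log2 fold change 3.19, SE 0.58, adjusted p = 0.0026). Bak1 (1.38, SE 0.28) and Pmaip1 (1.28, SE 0.36) were called higher, while Bmf, a BH3-only member, fell (-1.32, SE 0.36). The survival gene Mcl1 also rose (1.26, SE 0.22). Among 20 inflammasome, gasdermin and caspase genes 4 rose and 1 fell (median 0.11). Casp4, the mouse caspase-11 that senses cytosolic lipopolysaccharide, had 2.48, 2.49, 3.04 and 2.76 CPM in PBS+PBS and 191, 86.7, 89.9 and 59.7 CPM in PBS+TNF (log2 fold change 5.30, SE 0.71, adjusted p = 0.00047), and its pore-forming substrate Gsdmd had 0.514, 0.702, 2.99 and 5.904 CPM in PBS+PBS and 20.04, 19.6, 28.3 and 16.1 CPM in PBS+TNF (log2 fold change 3.11, SE 0.71, adjusted p = 0.0091). Casp4 controls were close together and all TNF libraries were far above them. Casp1 (1.55, SE 0.44) was also called higher, although its libraries overlapped, and Gsdme fell (-2.34, SE 0.72). Leaving out 1 library ended the call of Bmf (in 4 of 8 cases, adjusted p up to 0.082 without PBS+PBS 3), Casp1 (in 5 of 8 cases, adjusted p up to 0.09 without PBS+PBS 1), Gsdme (in 7 of 8 cases, adjusted p up to 0.14 without PBS+PBS 4) and Pmaip1 (in 5 of 8 cases, adjusted p up to 0.072 without PBS+PBS 2).

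**Figure D3:**
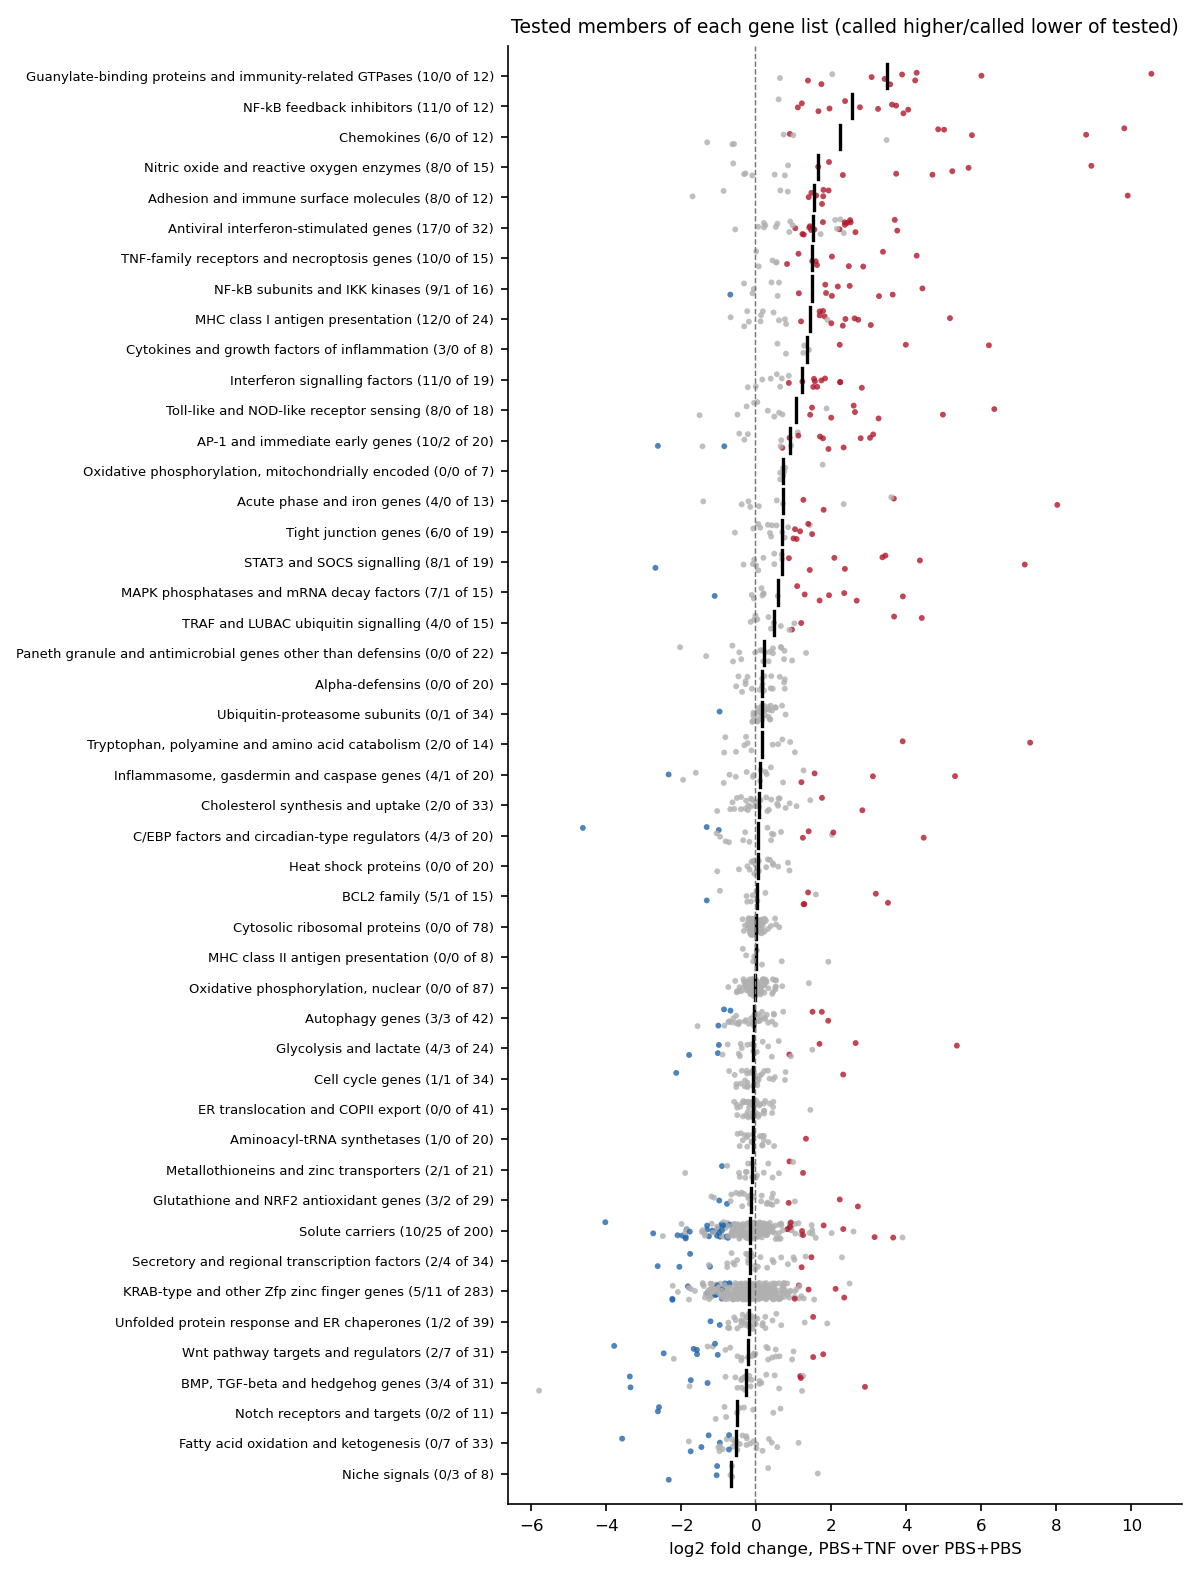
The log2 fold change of every tested member of 47 gene lists, with members called higher in red, lower in blue and others in grey, the list median as a black bar and the median of all genes as a dashed line. Guanylate-binding proteins (median 3.50) and NF-kB feedback inhibitors (2.56) lie at the top, and fatty acid oxidation genes (-0.53) and niche signals (-0.67) at the bottom.

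Chemokine and adhesion genes held some of the largest rises. Of 12 tested chemokine genes 6 rose and none fell. Cxcl11, a ligand of CXCR3, had 0.0857, 0, 0.1602 and 0 CPM in PBS+PBS and 87.1, 23.3, 18.3 and 18.3 CPM in PBS+TNF (log2 fold change 8.79, SE 1.45, adjusted p = 0.0016). Ccl20, which attracts CCR6-bearing lymphocytes, had 0.171, 1.09, 0.3204 and 1.005 CPM in PBS+PBS and 16.2, 18.4, 28.5 and 18.2 CPM in PBS+TNF (log2 fold change 5.01, SE 0.86, adjusted p = 0.0019). Cxcl10, another CXCR3 ligand, had 2 counts in all of PBS+PBS and 36.4, 41.7, 32.6 and 59.03 CPM in PBS+TNF, and the neutrophil attractant Cxcl1 had 3 counts in PBS+PBS and 4.24, 1.87, 4.50 and 3.12 CPM after TNF. For both the controls are too near 0 for a stable fold, and the same holds for Cxcl11 and for Icam1 below. Over the alternative settings the log2 fold change of Cxcl11 ran from 7.73 to 9.92 and that of Icam1 from 9.45 to 10.78. Of 8 cytokine genes 3 rose, and one of them was Tnf itself, with 0.428, 0.319, 0.107 and 0 CPM in PBS+PBS and 8.48, 21.3, 18.9 and 18.97 CPM in PBS+TNF (log2 fold change 6.20, SE 1.25, adjusted p = 0.0048). Csf1 (3.99, SE 0.92) and Tnfsf9 (2.22, SE 0.57) were the others. Of 12 adhesion and surface molecules 8 rose and none fell, but 4 were called without PBS+PBS 1 or PBS+PBS 2 and 3 without PBS+TNF 4. Icam1, the endothelial and epithelial ligand of leukocyte integrins (chromosome 9, 20926672 to 20940113), had 0.257, 0, 0.107 and 0 CPM in PBS+PBS and 52.2, 104, 106 and 127 CPM in PBS+TNF (log2 fold change 9.90, SE 1.75, adjusted p = 0.0027). Cd47, which restrains phagocytosis, had 22.7, 18.6, 23.2 and 36.3 CPM in PBS+PBS and 99.8, 103, 94.8 and 85.02 CPM in PBS+TNF (log2 fold change 1.93, SE 0.27, adjusted p = 0.00066), and Cd14, the lipopolysaccharide co-receptor, rose by 1.79 (SE 0.47). The call of Cd14 (in 3 of 8 cases, adjusted p up to 0.063 without PBS+TNF 4) and Tnfsf9 (in 2 of 8 cases, adjusted p up to 0.057 without PBS+PBS 2) ended without 1 library.

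Interferon-type genes rose as well. Guanylate-binding proteins and immunity-related GTPases, which attack vacuoles of intracellular microbes, had the highest list median (3.50), and 10 of 12 rose. Setting Gbp5 to its lower bound leaves that median as it is, because Gbp5 lies above it either way. Gbp2 had 0.428, 1.15, 3.58 and 0 CPM in PBS+PBS and 126, 119, 62.4 and 61.8 CPM in PBS+TNF (log2 fold change 6.002, SE 1.06, adjusted p = 0.0023), Gbp7 rose by 4.28 (SE 0.69) and Ifi47 had 1.46, 2.36, 2.51 and 9.67 CPM in PBS+PBS and 153, 42.1, 56.5 and 39.2 CPM in PBS+TNF (log2 fold change 4.23, SE 0.67, adjusted p = 0.0012). Gbp genes are similar in sequence and how shared reads were counted is not given in the sources used here, so the split among them is uncertain. Of 32 antiviral interferon-stimulated genes 17 rose and none fell (11 without PBS+PBS 1). Parp14 had 7.88, 7.53, 11.2 and 7.91 CPM in PBS+PBS and 106, 145, 84.2 and 112 CPM in PBS+TNF (log2 fold change 3.69, SE 0.64, adjusted p = 0.002), Samd9l had 13.02, 8.87, 12.2 and 9.29 CPM in PBS+PBS and 77.3, 76.03, 66.7 and 51.9 CPM in PBS+TNF (log2 fold change 2.64, SE 0.34, adjusted p = 0.00042) and Ifit1 had 0, 0.447, 0.374 and 0.126 CPM in PBS+PBS and 5.01, 3.62, 2.81 and 2.97 CPM in PBS+TNF (log2 fold change 3.76, SE 0.73, adjusted p = 0.0039). Of 19 interferon signalling factors 11 rose and none fell. Irf1, a transcription factor shared by TNF and interferon, had 20.5, 25.4, 27.3 and 25.2 CPM in PBS+PBS and 107, 119, 118 and 120.1 CPM in PBS+TNF (log2 fold change 2.24, SE 0.39, adjusted p = 0.002). Usp18, which blocks type I interferon receptors, rose by 2.81 (SE 0.49), the receptor chains Ifngr2 by 2.24 (SE 0.35) and Ifnar1 by 1.83 (SE 0.39).

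Genes of MHC class I presentation were called higher in 12 of 24 cases (7 without PBS+PBS 1). None of 8 class II genes was called by edgeR or DESeq2, and 1 had an unadjusted p under 0.05. The median log2 fold changes were 1.44 for class I and -0.02 for class II. Tap2, a subunit of the peptide transporter, had 7.45, 9.77, 10.8 and 5.02 CPM in PBS+PBS and 35.1, 74.5, 45.98 and 63.5 CPM in PBS+TNF (log2 fold change 2.72, SE 0.57, adjusted p = 0.0057). H2-Q4, a non-classical class I heavy chain, had 1.97, 4.92, 8.06 and 2.01 CPM in PBS+PBS and 23.7, 45.4, 36.6 and 38.6 CPM in PBS+TNF (log2 fold change 3.05, SE 0.56, adjusted p = 0.0026), and the peptide editor Tapbpl rose by 2.62 (SE 0.58). For H2-Q4 and Tap2 all TNF libraries were above all controls. How reads shared among H2-Q genes were counted is not given in the sources used here, so the level of each is uncertain. Of 34 constitutive proteasome genes 1 was called, Psmd5, which fell (-0.98, SE 0.25). Without both libraries that stood apart the adjusted p of Psmd5 was 0.074.

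Genes of microbial sensing and oxidative defence rose too. Of 18 Toll-like and NOD-like receptor genes 8 rose and none fell. Tlr2, the receptor for bacterial lipoproteins, had 0.514, 0.575, 0.908 and 0.628 CPM in PBS+PBS and 60.3, 61.3, 49.6 and 49.9 CPM in PBS+TNF (log2 fold change 6.34, SE 1.02, adjusted p = 0.0013). Nod2, the muramyl dipeptide sensor, had 0, 0.575, 0.481 and 0.126 CPM in PBS+PBS and 8.09, 12.6, 9.35 and 12.3 CPM in PBS+TNF (log2 fold change 4.97, SE 1.03, adjusted p = 0.0053). The controls of both were near 0 and no library overlapped. Tlr4 rose by 3.26 (SE 0.79) and Sting1 by 2.63 (SE 0.57). Among 15 nitric oxide and reactive oxygen genes 8 rose and none fell (median 1.65). Nos2, the inducible nitric oxide synthase, had 0.428, 0.447, 1.12 and 0 CPM in PBS+PBS and 233, 238, 181 and 466 CPM in PBS+TNF (log2 fold change 8.93, SE 1.32, adjusted p = 0.00098), and Gch1, which makes its cofactor, had 0.514, 0.0638, 0.214 and 0.502 CPM in PBS+PBS and 9.63, 7.17, 6.26 and 8.72 CPM in PBS+TNF (log2 fold change 4.70, SE 0.66, adjusted p = 0.00066). Duox2, an epithelial hydrogen peroxide source, had 25.02, 38.3, 26.5 and 23.9 CPM in PBS+PBS and 190.1, 479, 287 and 552 CPM in PBS+TNF (log2 fold change 3.73, SE 0.74, adjusted p = 0.0043), and its maturation factor Duoxa2 rose by 5.22 (SE 0.99). Nox1, the colonic NADPH oxidase, had 0.171, 0.192, 0.374 and 0.377 CPM in PBS+PBS and 14.1, 9.28, 10.8 and 23.5 CPM in PBS+TNF (log2 fold change 5.66, SE 1.00, adjusted p = 0.0022).

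Of 19 STAT3 and SOCS genes 8 rose and 1 fell (5 higher without PBS+PBS 2 or PBS+TNF 2). Osmr, the oncostatin M receptor, had 0, 0.128, 0.1602 and 0.126 CPM in PBS+PBS and 10.8, 30.2, 12.9 and 13.4 CPM in PBS+TNF (log2 fold change 7.16, SE 1.08, adjusted p = 0.00098). Socs3, the feedback inhibitor of that pathway, had 5.57, 8.43, 11.5 and 4.02 CPM in PBS+PBS and 178, 182, 109 and 147 CPM in PBS+TNF (log2 fold change 4.36, SE 0.61, adjusted p = 0.00066). Both rises were shared by all 4 TNF libraries. The controls of Osmr, and of Steap4 below, were near 0, so that the size of their folds is uncertain. Socs1 (3.44, SE 0.70) and Cish (3.36, SE 0.69) were also called higher, and Il6ra, the interleukin-6 receptor, fell (11.8, 10.02, 9.82 and 2.64 CPM in PBS+PBS and 0.193, 2.29, 0.703 and 1.68 CPM in PBS+TNF; log2 fold change -2.69, SE 0.53, adjusted p = 0.0043). In the iron and acute phase list 4 of 13 rose, led by Steap4, a metalloreductase, with 0.171, 0.192, 0.214 and 0 CPM in PBS+PBS and 27.2, 66.7, 36.3 and 48.8 CPM in PBS+TNF (log2 fold change 8.02, SE 1.19, adjusted p = 0.00094). The divalent metal transporter Slc11a2 (1.80, SE 0.41), the oxygen-regulated transcription factor Hif1a (1.25, SE 0.26) and hepcidin, Hamp (3.67, SE 0.99), made up the rest, of which Hamp stayed near 1 CPM after TNF. Calls that ended without 1 library were those of Hamp (in 6 of 8 cases, adjusted p up to 0.076 without PBS+PBS 2).

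Of 20 immediate early genes 10 rose and 2 fell (6 higher without PBS+PBS 2). Junb had 23.6, 23.5, 25.5 and 20.3 CPM in PBS+PBS and 165, 211, 192 and 193 CPM in PBS+TNF (log2 fold change 3.03, SE 0.49, adjusted p = 0.0013), Atf3 had 2.48, 1.34, 1.98 and 0.502 CPM in PBS+PBS and 18.5, 11.9, 14.8 and 11.1 CPM in PBS+TNF (log2 fold change 3.12, SE 0.71, adjusted p = 0.0086), and Ier3 (2.78, SE 0.65) and Fosl2 (2.33, SE 0.48) followed. Fosb (-2.62, SE 0.79) and Klf4 (-0.85, SE 0.25) fell. Of 15 MAPK phosphatases and mRNA decay factors 7 rose and 1 fell (4 higher without both libraries that stood apart). Dusp10, a phosphatase of JNK and p38, rose by 3.91 (SE 0.87) and Zfp36, which destabilises AU-rich mRNAs including that of TNF, had 31.5, 17.8, 17.7 and 12.1 CPM in PBS+PBS and 90.7, 134, 83.9 and 93.7 CPM in PBS+TNF (log2 fold change 2.34, SE 0.37, adjusted p = 0.0012). Dusp6, the phosphatase of ERK, fell (-1.11, SE 0.28). Cebpd, an acute phase transcription factor, had 1.37, 1.47, 1.39 and 1.38 CPM in PBS+PBS and 34.9, 29.2, 27.6 and 33.03 CPM in PBS+TNF (log2 fold change 4.46, SE 0.53, adjusted p = 0.00021). Its controls lay close together and far below the TNF libraries. Nfil3 rose (2.05, SE 0.48), and the clock genes Dbp (2 counts in all of PBS+TNF) and Nr1d1 (-1.32, SE 0.35) fell, in a list of 20 with 4 higher and 3 lower that held 2 higher without PBS+PBS 2 and 0 lower without PBS+TNF 2. With 1 library left out the test missed the threshold for Dbp (in 3 of 8 cases, adjusted p up to 0.066 without PBS+TNF 2), Dusp6 (in 1 of 8 cases, adjusted p up to 0.058 without PBS+PBS 1), Fosb (in 5 of 8 cases, adjusted p up to 0.19 without PBS+PBS 1), Klf4 (in 4 of 8 cases, adjusted p up to 0.081 without PBS+PBS 1) and Nr1d1 (in 2 of 8 cases, adjusted p up to 0.067 without PBS+PBS 3).

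**Figure D4:**
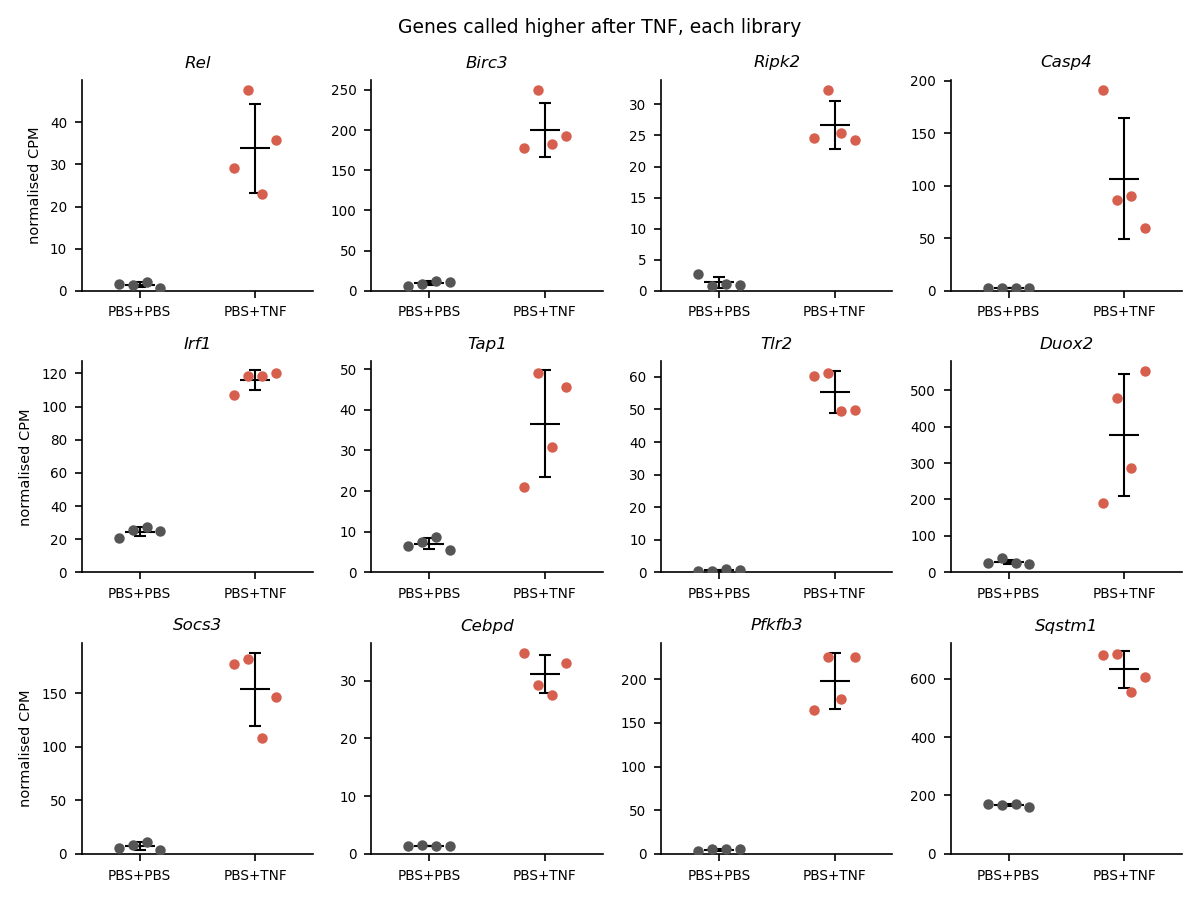
Normalised CPM of 12 genes called higher after TNF, with 1 point per library (4 PBS+PBS in grey, 4 PBS+TNF in red) and the mean ± SD in black, each axis starting at 0. In every panel the 4 TNF libraries lie above the 4 controls, from Pfkfb3 at 3.08 to 5.87 against 164 to 226 CPM to Irf1 at 20.5 to 27.3 against 107 to 120.1.

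Glycolysis genes changed in both directions, while the fatty acid oxidation genes that were called all fell. In glycolysis 4 of 24 rose and 3 fell around a median of -0.08. Pfkfb3, which makes the activator of phosphofructokinase, had 3.08, 5.298, 5.87 and 5.15 CPM in PBS+PBS and 164, 226, 178 and 225 CPM in PBS+TNF (log2 fold change 5.35, SE 0.69, adjusted p = 0.00042), and hexokinase 2, Hk2, had 13.5, 29.4, 15.3 and 13.3 CPM in PBS+PBS and 95.2, 138, 71.5 and 146 CPM in PBS+TNF (log2 fold change 2.65, SE 0.49, adjusted p = 0.0028). Pfkp (1.68, SE 0.31) and Hk1 (0.88, SE 0.26) were the other 2 that rose. Pdk1 (-1.03, SE 0.25) and Pdk2 (-0.999, SE 0.27), kinases that inhibit pyruvate dehydrogenase, were among those that fell, and 1 gene of the list was called lower without PBS+PBS 1, PBS+PBS 2 or PBS+TNF 3. Fatty acid oxidation and ketogenesis genes fell in 7 of 33 cases and rose in none (median -0.53; 4 without PBS+PBS 1 or PBS+TNF 3). Cpt1a, the rate-limiting carnitine transferase, had 81.8, 67.8, 87.6 and 64.3 CPM in PBS+PBS and 19.8, 30.02, 27.8 and 31.3 CPM in PBS+TNF (log2 fold change -1.46, SE 0.36, adjusted p = 0.014). Acaa2 (-1.749, SE 0.37) and Hadh (-1.27, SE 0.38) also fell. Single libraries decided the call of Hadh (in 5 of 8 cases, adjusted p up to 0.1 without PBS+TNF 2), Hk1 (in 5 of 8 cases, adjusted p up to 0.099 without PBS+PBS 1) and Pdk2 (in 5 of 8 cases, adjusted p up to 0.065 without PBS+PBS 3).

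Among 29 glutathione and antioxidant genes 3 rose and 2 fell. Gclc and Gclm, the catalytic and modifier subunits of the same glutathione-synthesising ligase, moved in opposite directions. Gclc had 28.01, 31.7, 32.8 and 24.7 CPM in PBS+PBS and 177, 241, 164 and 186 CPM in PBS+TNF (log2 fold change 2.71, SE 0.35, adjusted p = 0.00042), whereas Gclm had 24.1, 19.9, 23.8 and 21.1 CPM in PBS+PBS and 8.48, 13.1, 9.98 and 12.9 CPM in PBS+TNF (log2 fold change -0.99, SE 0.20, adjusted p = 0.0043). Neither gene had overlapping groups. Gpx2, the gut glutathione peroxidase, rose from 84.1, 134, 84.3 and 185 CPM to 765, 563, 459 and 491 CPM (log2 fold change 2.22, SE 0.36, adjusted p = 0.0013), and catalase, Cat, fell (-0.78, SE 0.18). In amino acid catabolism tyrosine aminotransferase rose, and Ido1, which degrades tryptophan, rose by 3.90 (SE 1.01). Of 20 aminoacyl-tRNA synthetases only Wars1, the one for tryptophan, rose, with 255, 294, 242 and 187 CPM in PBS+PBS and 533, 758, 530.04 and 626 CPM in PBS+TNF (log2 fold change 1.32, SE 0.37, adjusted p = 0.028), and the groups did not overlap. Sqstm1, the autophagy receptor p62, had 169.6, 167, 171 and 161 CPM in PBS+PBS and 683, 685, 554 and 607 CPM in PBS+TNF (log2 fold change 1.92, SE 0.42, adjusted p = 0.0069), in a list of 42 autophagy genes with 3 higher and 3 lower (0 to 7 lower when 1 library was left out). Leaving out 1 library ended the call of Ido1 (in 2 of 8 cases, adjusted p up to 0.059 without PBS+PBS 2) and Wars1 (in 5 of 8 cases, adjusted p up to 0.073 without PBS+TNF 2).

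Solute carriers were called lower more often than higher, 25 and 10 of 200 tested, 12.5% and 5.0% beside backgrounds of 5.35% and 7.15% (median -0.17). Leaving out PBS+PBS 1 gave 13 lower, beside 365 of all 12046 tested genes. Leaving out PBS+PBS 2, PBS+TNF 1 or PBS+TNF 3 gave 14, beside 396 of 12028, 476 of 12065 and 384 of 12010. Leaving out PBS+PBS 1, PBS+PBS 2 or PBS+TNF 2 gave 5 higher, beside 551 of 12046, 565 of 12028 and 597 of 12022. Slc2a5, the fructose transporter, had 21.1, 30.6, 26.2 and 20.3 CPM in PBS+PBS and 4.05, 8.802, 6.75 and 5.10 CPM in PBS+TNF (log2 fold change -1.97, SE 0.40, adjusted p = 0.0047). Slc19a1, the reduced folate carrier, had 60.1, 55.2, 59.2 and 38.1 CPM in PBS+PBS and 8.09, 16.9, 14.6 and 17.6 CPM in PBS+TNF (log2 fold change -1.88, SE 0.29, adjusted p = 0.0012) and was picked after its values were seen. The zinc transporter of Paneth cell granules, Slc30a2, fell by 0.92 on the log2 scale (SE 0.21), while Slc39a1, a zinc importer, rose by 1.25 (SE 0.29). Of 38 tested members of the mitochondrial SLC25 family 7 were called lower, a family singled out after its values were seen.

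The genes that fell included transcription factors of secretory cells. Of 34 tested secretory and regional transcription factors 4 fell and 2 rose. Bhlha15, known as Mist1, which builds the secretory apparatus of serous cells, had 279, 223, 207 and 113 CPM in PBS+PBS and 17.9, 44.9, 38.3 and 31.3 CPM in PBS+TNF (log2 fold change -2.63, SE 0.31, adjusted p = 0.00021). Gfi1, which directs secretory progenitors towards Paneth and goblet fates, had 24.2, 14.04, 19.6 and 11.2 CPM in PBS+PBS and 1.35, 5.37, 4.29 and 5.05 CPM in PBS+TNF (log2 fold change -2.05, SE 0.36, adjusted p = 0.002). Both sets of libraries were apart, with PBS+TNF 1 the lowest in each. Foxa2 (-1.76, SE 0.30) and Gata5 (-1.23, SE 0.26) were the other 2, and Klf5 (1.47, SE 0.28) and Elf3 (1.21, SE 0.34) rose. Among 39 unfolded protein response and ER chaperone genes 1 rose, Ppp1r15a, and 2 fell, Sel1l and Edem2. None of 41 ER translocation and COPII genes was called by edgeR or DESeq2, and 3 had an unadjusted p under 0.05. The call of Elf3 (in 5 of 8 cases, adjusted p up to 0.069 without PBS+TNF 4) and Sel1l (in 5 of 8 cases, adjusted p up to 0.08 without PBS+PBS 1) ended without 1 library.

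Ligands that Paneth cells present to stem cells fell in 3 of 8 tested cases (median -0.67). The log2 fold change was above 0 for 2 of the 8, up to 1.64, and 0 were called higher. Over all settings 1 to 3 were called lower and 0 to 1 higher. Dll4, a Notch ligand, had 31.7, 27.6, 24.99 and 13.1 CPM in PBS+PBS and 1.54, 5.18, 5.41 and 6.49 CPM in PBS+TNF (log2 fold change -2.33, SE 0.44, adjusted p = 0.0032). Wnt3, the Paneth cell Wnt, had 124, 136, 114 and 102 CPM in PBS+PBS and 47.01, 60.9, 55.4 and 65.2 CPM in PBS+TNF (log2 fold change -1.06, SE 0.21, adjusted p = 0.0047). Neither gene's groups overlapped. Egf fell too (-1.04, SE 0.30), with 1 control inside the TNF range. In the Notch list Lfng, a glycosyltransferase that modifies Notch receptors, had 22.4, 12.9, 11.5 and 9.92 CPM in PBS+PBS and 3.85, 1.51, 2.32 and 2.13 CPM in PBS+TNF (log2 fold change -2.59, SE 0.55, adjusted p = 0.0063), and Hes6 had 16.7, 24.96, 22.2 and 47.9 CPM in PBS+PBS and 3.27, 3.195, 4.78 and 6.49 CPM in PBS+TNF (log2 fold change -2.62, SE 0.53, adjusted p = 0.0049), and the other 9 of 11 members were not called. Calls that ended without 1 library were those of Egf (in 6 of 8 cases, adjusted p up to 0.12 without PBS+PBS 1).

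Wnt pathway targets and regulators were called lower in 7 of 31 cases and higher in 2 (median -0.23; 4 lower without PBS+PBS 1). Nkd1, a Wnt-induced feedback inhibitor, had 24.1, 34.3, 25.6 and 12.6 CPM in PBS+PBS and 1.54, 5.61, 4.64 and 5.05 CPM in PBS+TNF (log2 fold change -2.47, SE 0.38, adjusted p = 0.0012). Lgr4, the R-spondin receptor, had 300.1, 289, 298 and 139.9 CPM in PBS+PBS and 68.97, 104, 85.8 and 83.7 CPM in PBS+TNF (log2 fold change -1.58, SE 0.28, adjusted p = 0.0021). Notum, a secreted Wnt deacylase, had 1.28, 1.47, 2.19 and 1.26 CPM in PBS+PBS and 0, 0.362, 0 and 0 CPM in PBS+TNF, the latter from 6 counts. Dkk3 (-1.67, SE 0.38) also fell, and so did Lgr5, Tcf7 and Rnf43, whose libraries overlapped between the groups with PBS+PBS 4 the lowest control. Apc, the scaffold of beta-catenin degradation, rose from 44.3, 28.3, 41.8 and 28.9 CPM to 119, 129, 78.7 and 83.9 CPM (log2 fold change 1.52, SE 0.34, adjusted p = 0.0083), and Cd44, a surface glycoprotein and Wnt target, rose by 1.78 (SE 0.53). Stem cell markers summed to 517 to 1439 plain CPM in PBS+PBS and 287 to 1663 in PBS+TNF, so their sum overlapped between the groups, although 2 of the 8 markers, Lgr5 and Smoc2, fell, and the part of admixed stem cells in the Wnt changes was not tested. With 1 library left out the test missed the threshold for Cd44 (in 5 of 8 cases, adjusted p up to 0.13 without PBS+TNF 4), Lgr5 (in 1 of 8 cases, adjusted p up to 0.061 without PBS+PBS 1), Rnf43 (in 4 of 8 cases, adjusted p up to 0.066 without PBS+PBS 1), Smoc2 (in 4 of 8 cases, adjusted p up to 0.073 without PBS+TNF 3) and Tcf7 (in 2 of 8 cases, adjusted p up to 0.059 without PBS+TNF 3).

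Of 31 BMP, TGF-beta and hedgehog genes 4 fell and 3 rose (2 lower without PBS+PBS 1, PBS+PBS 3 or PBS+TNF 4). Bambi, a decoy receptor for BMP and TGF-beta, had 289.9, 126, 112 and 257 CPM in PBS+PBS and 25.6, 23.1, 20.3 and 7.13 CPM in PBS+TNF (log2 fold change -3.37, SE 0.51, adjusted p = 0.00098). Ihh, the hedgehog ligand of the gut epithelium, had 6.17, 6.77, 7.101 and 13.1 CPM in PBS+PBS and 0.771, 0.543, 1.195 and 0.693 CPM in PBS+TNF (log2 fold change -3.35, SE 0.68, adjusted p = 0.0048), and the hedgehog receptor and target Ptch1 had 9.34, 7.21, 8.54 and 5.78 CPM in PBS+PBS and 0.385, 3.44, 2.81 and 2.08 CPM in PBS+TNF (log2 fold change -1.747, SE 0.48, adjusted p = 0.024). Bmp3 (-1.30, SE 0.42) was the fourth list member that fell, and Acvr1c, given below, is outside the list. Tgfbr2, the ligand-binding TGF-beta receptor, rose in all TNF libraries, with 3.86, 7.92, 8.33 and 4.14 CPM in PBS+PBS and 27.2, 59.7, 43.4 and 52.1 CPM in PBS+TNF (log2 fold change 2.90, SE 0.60, adjusted p = 0.0053), while Acvr1c, the type I receptor ALK7, fell, with 56.5, 54.3, 61.03 and 42.7 CPM in PBS+PBS and 6.94, 5.73, 7.59 and 3.42 CPM in PBS+TNF (log2 fold change -3.19, SE 0.52, adjusted p = 0.0013). Single libraries decided the call of Bmp3 (in 7 of 8 cases, adjusted p up to 0.13 without PBS+PBS 1) and Ptch1 (in 3 of 8 cases, adjusted p up to 0.064 without PBS+PBS 1).

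By loss of CPM the first gene was Lbh, a transcriptional cofactor, with 793, 997, 857 and 575 CPM in PBS+PBS and 143, 271, 235 and 169 CPM in PBS+TNF (log2 fold change -1.98, SE 0.32, adjusted p = 0.0013), followed by Tent5c, a poly(A) polymerase that stabilises secretory mRNAs, with 505, 469, 419.98 and 247 CPM in PBS+PBS and 18.5, 66.7, 54.9 and 50.5 CPM in PBS+TNF (log2 fold change -3.10, SE 0.41, adjusted p = 0.00044). Hpgd, which inactivates prostaglandins, had 177, 199, 205 and 253 CPM in PBS+PBS and 41.2, 34.1, 30.7 and 22.9 CPM in PBS+TNF (log2 fold change -2.70, SE 0.46, adjusted p = 0.0018). All 3 genes fell in every TNF library below every control. Sypl1, a vesicle membrane protein, fell least of the 8 with the greatest loss of CPM (-0.90, SE 0.22). By fold, Nptx1, a neuronal pentraxin, had 6.08, 4.92, 5.98 and 3.14 CPM in PBS+PBS and 0, 0.301, 0.141 and 0.0495 CPM in PBS+TNF (log2 fold change -5.08, SE 0.85, adjusted p = 0.0016). Atoh8, a bHLH factor, fell by 3.57 on the log2 scale (SE 0.61), the deglycating kinase Fn3k by 3.55 (SE 0.65), the lysine-pathway kinase Hykk by 3.90 (SE 0.82) and the oxysterol receptor Gpr183 by 3.06 (SE 0.65). C2cd4c and Pnma2 were also among the 12 largest falls, at -3.12 (SE 0.51) and -3.10 (SE 0.79). The pathway lists, leaving out the 2 family lists of solute carriers and zinc finger genes, held 190 of the 844 rising genes and 50 of the 632 falling genes, which is 22.5% and 7.91% beside 9.03% of all tested genes. Leaving out 1 library ended the call of Pnma2 (in 1 of 8 cases, adjusted p up to 0.054 without PBS+TNF 4) and Sypl1 (in 1 of 8 cases, adjusted p up to 0.052 without PBS+PBS 1).

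**Figure D5:**
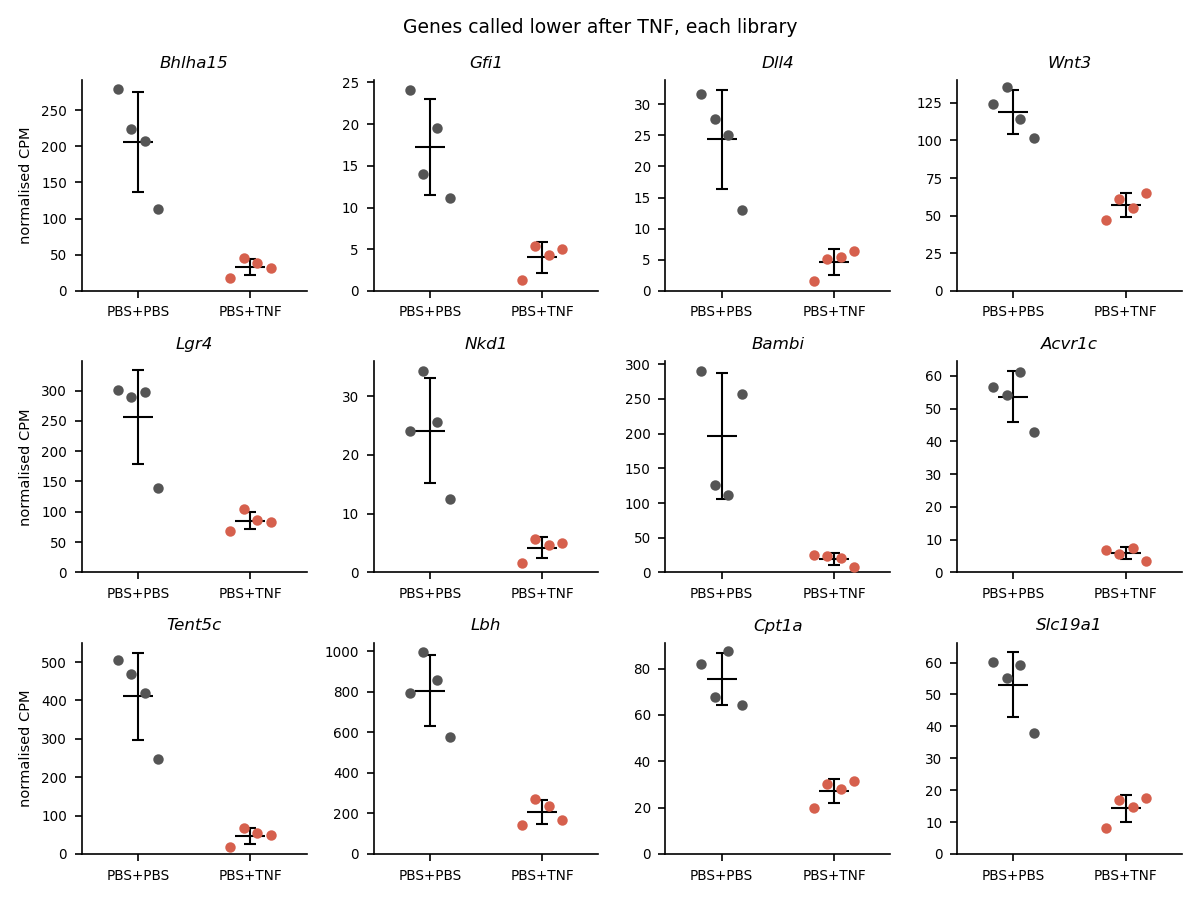
Normalised CPM of 12 genes called lower after TNF, with 1 point per library (4 PBS+PBS in grey, 4 PBS+TNF in red) and the mean ± SD in black, each axis starting at 0. In every panel the 4 TNF libraries lie below the 4 controls, and PBS+PBS 4 is the lowest control in every panel but that of Bambi.

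A few falling genes outside the lists were chosen after their values were seen. Fgfr3, a fibroblast growth factor receptor, had 37.6, 30.5, 41.4 and 25.4 CPM in PBS+PBS and 6.55, 11.8, 13.2 and 10.399 CPM in PBS+TNF (log2 fold change -1.67, SE 0.25, adjusted p = 0.00094), and the Wnt receptor Fzd9 had 64.3, 64.1, 55.2 and 43.8 CPM in PBS+PBS and 5.39, 19.3, 13.4 and 11.98 CPM in PBS+TNF (log2 fold change -2.17, SE 0.32, adjusted p = 0.00094). The E-protein Tcf12, a partner of tissue-specific bHLH factors, had 184, 159, 156 and 106 CPM in PBS+PBS and 35.1, 59.1, 43.4 and 41.6 CPM in PBS+TNF (log2 fold change -1.754, SE 0.27, adjusted p = 0.0011). No library of these 3 genes crossed between the groups. Pou2af3, a POU-domain coactivator, had 41.9, 24.6, 21.9 and 17.6 CPM in PBS+PBS and 4.43, 4.04, 2.46 and 3.32 CPM in PBS+TNF (log2 fold change -2.91, SE 0.48, adjusted p = 0.0015), and it lies beside Pou2af1 and 2010007H06Rik on chromosome 9, which were called lower as well.

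None of 78 cytosolic ribosomal protein genes, 87 nuclear and 7 mitochondrially encoded oxidative phosphorylation genes, 20 heat shock genes or 20 tested alpha-defensin genes were called by edgeR. Unadjusted p was under 0.05 for 0, 0, 0, 6 and 0 of them in this order, and DESeq2 called 2 heat shock genes higher and none of the others. The medians were -0.02, -0.03, 0.72, 0.04 and 0.16. The alpha-defensin median was -0.89 without PBS+TNF 1, 0.52 without PBS+PBS 4 and -0.50 without both. The ribosomal median was -0.58, 0.67 and 0.08 in these fits, so both medians depended on the libraries that stood apart. Over all settings the nuclear and mitochondrially encoded medians ran from -0.51 to 0.50 and from -0.14 to 1.02. The 22 other Paneth granule and antimicrobial genes were not called by edgeR (1 higher by DESeq2, 3 with an unadjusted p under 0.05), with log2 fold changes from -2.03 to 1.33 around 0.22 and a smallest adjusted p of 0.099. The medians of the ribosomal, heat shock, cholesterol, BCL2 and C/EBP lists changed sign between scalings. The levels of granule genes varied between libraries within a group, and a missing call does not show that they were equal. Of 28 alpha-defensin genes 20 had enough reads to be tested. The study reports many multi-mapped reads at this locus, and how the deposited counts treat them is not given. The level of each alpha-defensin gene and their share of the counts are therefore uncertain. Of 34 cell cycle genes 1 rose (Plk3) and 1 fell (Cdkn2c), and of 33 cholesterol genes 2 rose (Lrp8 and Mvd). Of 19 tight junction genes 6 rose and none fell (median 0.69), led by F11r (1.49, SE 0.33), Pals1 (1.38, SE 0.29), Tjp3 (1.17, SE 0.30) and Marveld3 (1.07, SE 0.21). Of 283 tested Zfp zinc finger genes 1.77% were called higher and 3.89% lower, both under the background of all genes, a share that rests on 5 and 11 genes. Without PBS+PBS 2, PBS+TNF 3 or PBS+TNF 4 there were 3 higher, and 8 without PBS+PBS 4. Without PBS+PBS 1, PBS+PBS 3 or PBS+TNF 3 there were 6 lower, and 5 without PBS+PBS 2 or PBS+TNF 4. The call of Cdkn2c (in 6 of 8 cases, adjusted p up to 0.11 without PBS+TNF 2), Lrp8 (in 6 of 8 cases, adjusted p up to 0.076 without PBS+PBS 3), Mvd (in 2 of 8 cases, adjusted p up to 0.053 without PBS+PBS 3), Plk3 (in 1 of 8 cases, adjusted p up to 0.053 without PBS+PBS 1) and Tjp3 (in 2 of 8 cases, adjusted p up to 0.064 without PBS+PBS 1) ended without 1 library.

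Markers of other cell types were read as plain CPM summed over each list. T and NK cell markers summed to at most 0.63 in PBS+PBS and 1.14 in PBS+TNF, with 10 of 12 at 0 in all 8 libraries. B cell markers summed to at most 0.089 and 0.79, with 5 of 9 at 0. Macrophage, dendritic cell and neutrophil markers summed to 41.6 to 106 and 40.8 to 42.8, with 8 of 13 at 0. Stromal and endothelial markers went from 0.71 to 2.46 up to 3.38 to 10.7, where Vwf was called higher and 7 of 12 were at 0. Enterocyte markers summed to 226 to 421 in PBS+PBS and 38.85 to 183 in PBS+TNF, and Anpep, which supplied most of the sum, had 317, 312, 276 and 124 CPM in PBS+PBS and 18.7, 85.1, 51.9 and 64.5 CPM in PBS+TNF (log2 fold change -2.22, SE 0.41, adjusted p = 0.0028). Without Anpep the other 13 summed to 44.5 to 163 and 31.0 to 92.8, which overlap. Goblet cell markers summed to 8692 to 18998 in PBS+PBS and 14798 to 23066 in PBS+TNF, and tuft cell markers to 3.39 to 76.7 and 6.43 to 259, with no member called. Enteroendocrine markers summed to 17.3 to 29.4 and 18.6 to 29.8, with 1 of 4 tested members, Tac1, called higher. Whether that call held with 1 library left out was not examined. The Paneth cell list had 2 called members, Kit and Wnt3, both lower. Kit, a receptor tyrosine kinase used to mark Paneth cells, had 212, 244, 230.3 and 103 CPM in PBS+PBS and 40.6, 99.6, 90.6 and 86.1 CPM in PBS+TNF (log2 fold change -1.32, SE 0.30, adjusted p = 0.0095). The part of these admixed cells in the results was not tested. Calls that ended without 1 library were those of Vwf (in 7 of 8 cases, adjusted p up to 0.13 without PBS+PBS 1).

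By gene class, of 11214 protein-coding genes 7.24% were called higher and 5.35% lower, of 412 long noncoding RNAs 5.58% and 6.31%, and of 121 pseudogenes 5.79% and 3.31%. Protein-coding genes under 3 kb long (7.20% and 6.05% of 347) and those over 100 kb (8.10% and 5.49% of 1493) were near the background. By exons of the canonical transcript, 8.94% of 179 single-exon genes were called higher and 10.1% lower, against 6.21% and 3.81% of 1498 genes with over 20 exons. By chromosome the share called higher ran from 3.80% on X to 12.1% on chromosome 18.

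Sequence features of the rising genes differed in frequency, as a description with no test. A kB match lay in the 300-base promoter window of 9.99% of tested protein-coding genes, 14.9% of called-higher genes, 19.9% of genes that rose at least 4-fold and 9.0% of called-lower genes. An ISRE core match lay in 7.71%, 11.2%, 13.6% and 5.67%. It was found in 8 of the 10 guanylate-binding and immunity-related GTPase genes that rose, in 8 of the 17 antiviral genes, in 3 of 11 feedback inhibitors, in 2 of 9 NF-kB subunits and IKK kinases, in 1 of 6 chemokines and in 0 of 12 MHC class I genes, while a kB match was found in 4 of 11 feedback inhibitors, 2 of 9 subunits and kinases, 3 of 6 chemokines, 3 of 12 MHC class I genes, 1 of 10 GTPase genes and 1 of 17 antiviral genes. Promoters of genes that rose at least 4-fold had a median of 10 CpG dinucleotides against 18 over all tested genes. The AU-rich nonamer TTATTTATT, an element of unstable mRNAs, occurred in the 3′ UTR of 8.93% of tested genes, 12.2% of called-higher genes, 16.2% of those that rose at least 4-fold and 7.17% of called-lower genes. It depends on UTR length, and in UTRs over 1500 bases the shares were 14.6%, 20.2% and 10.9% for tested, higher and lower genes.

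Some rising genes lay side by side. Of 843 placed genes called higher 20.4% had a called-higher gene next to them within 100 kb, against 9.56% of other genes, and of 631 called lower 11.9% had a called-lower neighbour, against 7.98%. Adjacent called-higher genes are named here for their position, after their values were seen. The longest run was Gbp5, Gbp7, Gbp3, Gbp2 and Kyat3 on chromosome 3 (142199739 to 142452631). Psmb9, Tap1, Psmb8 and Tap2 formed a run on chromosome 17 (34400960 to 34435829), H2-Q4, H2-Q6 and H2-Q7 followed on the same chromosome (35595991 to 35662749, with Gm11131), and Parp14, Dtx3l and Parp9 lay together on chromosome 16 (35653231 to 35792980). Ifnar1, Ifngr2 and Tmem50b on chromosome 16 (91281942 to 91394697), Psme2, Rnf31 and Irf9 on chromosome 14 (55824895 to 55847812) and Duox2, Duoxa2 and Shf on chromosome 2 (122109728 to 122200696) were further runs. Neighbours can share reads where genes overlap, since whether the counting used strand is not given in the sources used here. The same limit holds for reads shared within the Gbp and H2-Q runs, whose treatment is not given either. With 1 library left out the test missed the threshold for Gm11131 (in 6 of 8 cases, adjusted p up to 0.12 without PBS+TNF 1), H2-Q6 (in 2 of 8 cases, adjusted p up to 0.066 without PBS+PBS 3), H2-Q7 (in 6 of 8 cases, adjusted p up to 0.099 without PBS+TNF 2), Kyat3 (in 5 of 8 cases, adjusted p up to 0.1 without PBS+PBS 2), Psmb9 (in 7 of 8 cases, adjusted p up to 0.11 without PBS+PBS 2), Psme2 (in 5 of 8 cases, adjusted p up to 0.17 without PBS+TNF 1) and Tmem50b (in 3 of 8 cases, adjusted p up to 0.073 without PBS+TNF 2).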

How the data were processed

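Paneth cell RNA of the 8 libraries, 4 PBS+PBS and 4 PBS+TNF, was read from the deposited table of raw read counts per Ensembl gene. The submitters' processing notes name FastQC 0.12, STAR 2.7.10a and DESeq2, and the study's methods align to GRCm39 with GENCODE M30. Which program made the deposited counts, the treatment of multi-mapping reads and any use of strand are not given in the sources used here. Columns of per-sample values not used numbered 0. Names, coordinates and promoters came from GENCODE M39 on GRCm39, which held 54749 of the 55414 identifiers.

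Genes were filtered with filterByExpr, scaled by TMM and tested by edgeR 4.0.16 (quasi-likelihood F test, R 4.3.3) in 1 model of all 16 libraries, with a mean per group, contrast PBS+TNF minus PBS+PBS and Benjamini-Hochberg adjustment, calling adjusted p under 0.05. SE is the log2 fold change divided by the square root of F. The procedure was tested on simulated data, drawn independently for each gene and library. Deviations shared by many genes of a library, as in the libraries that stood apart, were not simulated. Named genes were, among called genes with at least 5 CPM in the higher group and groups apart, the 12 largest rises and falls. Added were the 8 called genes with the largest gains and losses of CPM. Of each list up to 4, 2 and 2 members called in the main direction, called in the other and not called were added. The list members did not have to reach 5 CPM or have groups apart. Some genes that this rule names are not reported here. Members, lists and rules were chosen with earlier results of these data known. Alternatives were RLE and upper-quartile factors, TMM without alpha-defensins, no filter, a mean of 5 CPM, DESeq2 1.42.0, only the 8 libraries, a replicate block, stricter thresholds, other baselines, leaving out each library, and, chosen after seeing the data, leaving out both libraries that stood apart.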

Additional observations from a re-analysis of the deposited data

Results flagged for a closer look

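In 39 of 375 groups of 4 values examined for the named genes and library shares (10.4%), 1 library stood apart from the other 3 beyond the limit of Dixon's test. Chance flags about 1 in 20 groups of normally distributed values. A group with 3 libraries at 0 and any read in the other is always flagged, so the 10.4% cannot be set directly against that rate. PBS+PBS 4 was that library in 15 cases and PBS+TNF 1 in 10, and these are the libraries with most alpha-defensin reads. The alpha-defensin share of PBS+PBS 4 (54.5%) was itself such a value. In PBS+PBS 4 the CPM lay above that of the other 3 libraries of its group for AW112010 (40.6), Casp1 (17.96), Cxcl10 (0.251), Dbp (2.76), Duoxa2 (8.67), Gsdme (13.7), Hadh (91.3), Ifi47 (9.67), Ihh (13.1) and Psme2 (70.1). In PBS+PBS 4 the CPM lay below that of the other 3 libraries of its group for Lgr4 (139.9), Pals1 (9.92), Pdk2 (22.2) and Tcf7 (6.66). In PBS+PBS 1 the CPM lay above that of the other 3 libraries of its group for Hif1a (42.6). In PBS+PBS 2 the CPM lay above that of the other 3 libraries of its group for Cxcl1 (0.192), Gpr37l1 (0.128), H2-Q6 (0.128), Hk2 (29.4) and Krt36 (0.0638). In PBS+PBS 3 the CPM lay above that of the other 3 libraries of its group for Hamp (0.267) and Parp14 (11.2). In PBS+TNF 4 the CPM lay above that of the other 3 libraries of its group for Cd14 (8.37), Cd44 (45.9) and Dbp (0.09904). In PBS+TNF 1 the CPM lay above that of the other 3 libraries of its group for Cxcl11 (87.1), Gm40723 (6.55), Ifi47 (153), Irf9 (23.1), Plscr1 (735) and Psmb8 (48.5). In PBS+TNF 1 the CPM lay below that of the other 3 libraries of its group for C2cd4c (0.578), Irf1 (107), Klf4 (10.2) and Plk3 (1.35). In PBS+TNF 2 the CPM lay above that of the other 3 libraries of its group for Notum (0.362), Osmr (30.2) and Ripk2 (32.3). The gap of Irf1 was small against its level (107 in PBS+TNF 1 and 118 to 120.1 in the others). The values of Cxcl10, Cxcl1, Gpr37l1, H2-Q6, Hamp and Krt36 in PBS+PBS and of Dbp and Notum in PBS+TNF rest on 6 counts or fewer over the group.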

How the results depend on the processing

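The number of called genes (1476, 844 higher and 632 lower) was within 1.5 times of this under RLE and upper-quartile factors, TMM without alpha-defensins, no filter, a 5 CPM minimum, DESeq2 (1146 higher and 915 lower), only the 8 libraries, at least a doubling or halving, and both libraries that stood apart left out. An adjusted p under 0.01 left 570 genes, 357 higher and 213 lower. Leaving out 1 library gave 916 to 1638 genes, 551 to 833 higher and 365 to 805 lower. The 1638 genes, 833 higher and 805 lower, were those called without PBS+PBS 4. The replicate block gave 838 higher and 644 lower over all 16 libraries, and 752 genes, 542 higher and 210 lower, in the fit of the 8 alone. Same-numbered libraries correlated in their deviations at -0.123, 0.336, 0.0603 and -0.283, and no PBS+TNF library correlated best with the library of its own number. These correlations rest on few libraries, including both that stood apart, so they cannot decide whether the numbers pair the libraries. Whether same-numbered libraries shared a day or batch was not tested. The difference in median log2 fold change of called-higher genes between the lowest and highest baseline bin, which the filter and the threshold partly set, was 2.34 with PBS+PBS as baseline, 1.62 with the mean of 8 libraries as baseline and 3.27 with CPM not divided by length.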
